A study of Oryctolagus cuniculus with 9 samples.

Results

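The genes for aminoacyl tRNA synthetases, with the 3 scaffold proteins that hold some of these enzymes together, were followed in primary rabbit parathyroid cells through hypoxia and reoxygenation with and without gallic acid. Members were the loci whose gene name is a letter followed by ARS, with or without a closing 1 or 2, together with EPRS, FARSB, AIMP1, AIMP2 and EEF1E1. The highest row per name was used. The members described are 33 of the 19511 loci in the expression table: 17 cytosolic enzymes, 13 mitochondrial enzymes (names ending in 2) and 3 scaffold proteins. CARS, GARS and FARSA, the other cytosolic symbols of the family, are not analysed here. Members were thus picked by name. Measured values would have served only to choose between rows of the same name, and 33 rows matched for the 33 members.

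Each of 3 groups had 3 libraries. Control cells were untreated and labelled day 0. H/R cells underwent 6 h of hypoxia followed by 6 h of reoxygenation. GA+H/R cells were given 1200 µM gallic acid, a plant phenolic acid, for 24 h ahead of the same hypoxia and reoxygenation. The genotype label reads WT for controls and names only the injury and gallic acid for the others, with no engineered allele. It is not stated if the H/R cells spent those 24 h in culture without gallic acid, or if the 3 libraries of a group are separate animals or cultures, so p-values measure the spread between libraries, which may be technical.

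An aminoacyl tRNA synthetase joins an amino acid to its matching tRNA, so that the ribosome receives the residue the codon calls for. Cytosolic and mitochondrial translation mostly use enzymes from separate genes, whereas KARS supplies lysyl tRNA synthetase to both compartments. In mammalian cells, 8 cytosolic enzymes (EPRS, LARS, IARS, QARS, MARS, KARS, RARS and DARS) assemble with AIMP1, AIMP2 and EEF1E1 into the multisynthetase complex, and the other cytosolic enzymes act outside it. In human and mouse cells many cytosolic synthetase genes are targets of ATF4, the transcription factor of the amino acid response.

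Values were deposited as FPKM, fragment numbers corrected for transcript length and library size, without read counts, so depth is unknown. The sum of FPKM ran from 1648010 to 1696490 among controls, from 730117 to 752065 after H/R and from 467499 to 516231 for GA+H/R. On the deposited scale the median change in log2(FPKM + 1) over the loci tested was -1.25 from control to H/R and -0.50 from H/R to GA+H/R. The added 1 draws these values towards 0. The main scale used here is relative to the median locus: each library was divided by its own factor (scaled FPKM), and a call is an adjusted p under 0.05 across all 10956 loci tested. The direction of most members turns on this choice, so the deposited result stands beside it. Of 9 parathyroid markers 7 were in the table, and 5 of these averaged under 1 FPKM. PTH, the parathyroid hormone gene, reached at most 0.142 FPKM in any library. The 8 fibroblast markers in the table summed to 115007 to 177757 FPKM among controls, 19763 to 19821 after H/R and 6374 to 6541 for GA+H/R. The 8 macrophage markers summed to 4.30 to 54.7, 17.2 to 17.5 and 111 to 119 FPKM in the same order. No fibroblast or macrophage marker in the table was at 0 in every library, and endothelial, T cell and epithelial markers summed to at most 1.43 FPKM in any library. Smooth muscle and pericyte markers summed to 2317 to 3598, 2480 to 2500 and 1291 to 1322 FPKM, again in that order. As scaled FPKM, fibroblast markers summed to 58538 to 98087, 29440 to 29548 and 15118 to 15423, macrophage markers to 2.19 to 31.0, 25.6 to 26.2 and 262 to 281, and smooth muscle and pericyte markers to 1179 to 2037, 3702 to 3725 and 3040 to 3124, so that the last of these lay above the controls in both treated groups on this scale. The part of these shifts in the changes of the synthetase genes was not tested. In such bulk samples, fewer cells of a type and less RNA per cell cannot be told apart.

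Control 1 stood apart from the other controls in the cytosolic enzymes. Its scaled FPKM was above both other controls for 14 of the 16 cytosolic enzymes tested, against 45.3% of all loci. Among the 8 enzymes outside the complex it was above both in all 8, with a median ratio of 1.44 to the mean of controls 2 and 3. Tyrosyl tRNA synthetase YARS had a ratio of 1.72, asparaginyl NARS 1.59, alanyl AARS 1.55 and seryl SARS 1.51.

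Within the complex the picture in control 1 was mixed. The median ratio was 1.10, methionyl MARS reached 1.58, and aspartyl DARS (0.72) and glutaminyl QARS (0.86) lay below both other controls. Mitochondrial enzymes had a median ratio of 1.13 and scaffold proteins 1.18, beside 1.02 over all loci. In the same library, amino acid response genes had a median ratio of 1.37 and were above both other controls in 24 of 31. The ratio was 1.60 for ATF4. Of 8 fibroblast markers 6 were lower in control 1 than in both other controls in deposited FPKM, with DCN furthest off at 390 beside 1259 and 1251 FPKM, and PDGFRA and FBLN1 were higher. All 8 macrophage markers and all 4 smooth muscle and pericyte markers in the table were lower in control 1 than in both other controls. The macrophage gene MRC1 was at 1.55 FPKM in this library, beside 42.6 and 46.5 FPKM in controls 2 and 3. The median coefficient of variation of the cytosolic enzymes was 17.1% among controls, 2.44% after H/R and 3.87% for GA+H/R, against 11.5%, 8.32% and 11.2% over all loci. Calls that differ without control 1 are given with each comparison.

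**Figure D1:**
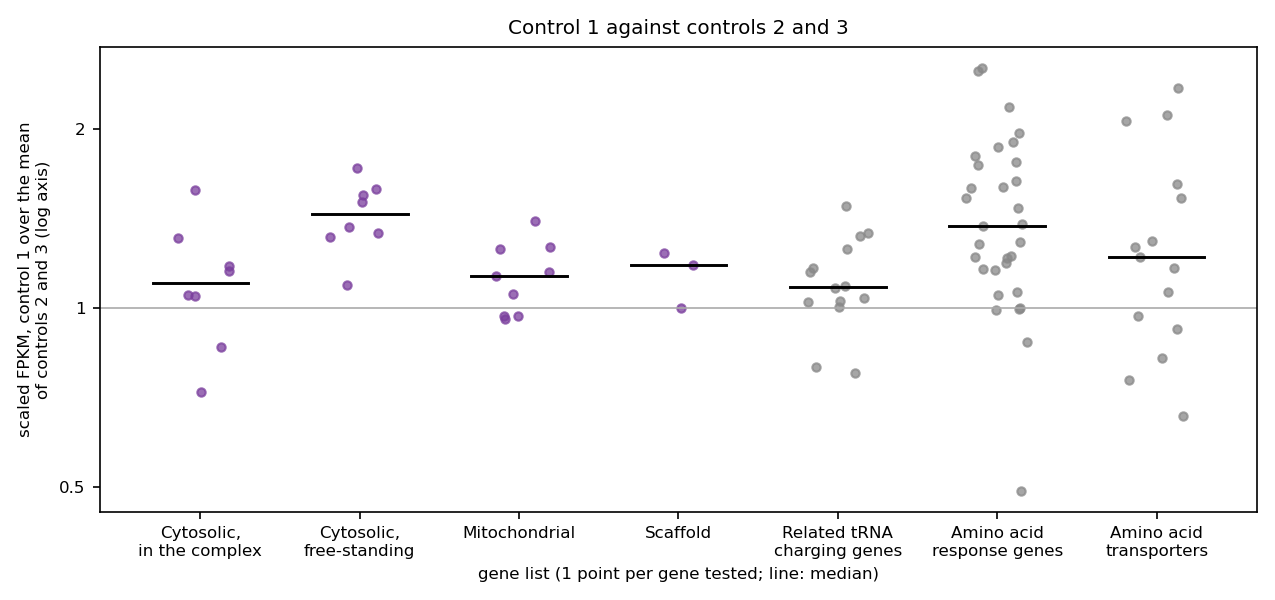
Ratio of control 1 to the mean of controls 2 and 3 (scaled FPKM, log axis), with 1 point per tested gene and a line at the median of each list. Free-standing cytosolic enzymes lie above 1 in all 8 cases, with a median of 1.44, while the complex enzymes spread from 0.72 to 1.58.

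After hypoxia and reoxygenation the complex enzymes parted. Relative to the median locus, lysyl KARS and glutaminyl QARS rose (both fell on the deposited scale), the bifunctional glutamyl-prolyl enzyme EPRS and leucyl LARS fell, and the other 4 complex enzymes were not called. Of all 10956 loci 57.6% were called in this comparison, 29.2% higher and 28.4% lower, and of the 28 members tested 12 were called higher and 3 lower. Over the 16 cytosolic enzymes tested, 6 were called higher and 2 lower, with a median log2 change of 0.32 beside 0.0028 for all loci. On the deposited scale the split was 0 higher and 16 lower, where 90.2% of loci were called, 4.18% higher and 86% lower. The H/R libraries lay wholly above the controls for 5 of the 16 cytosolic enzymes and wholly below for 3, and for 34.1% and 33% of all loci.

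KARS was at 203, 175 and 176 scaled FPKM in the controls and at 373, 389 and 393 in H/R. All 3 H/R libraries were above all controls, with a log2 change of 1.06 ± 0.07 (SE; adjusted p = 2.16e-06). QARS was at 293, 330 and 351 scaled FPKM in control and at 626, 625 and 616 in H/R, again without overlap, a log2 change of 0.94 ± 0.06 (adjusted p = 3.93e-06). In deposited FPKM these genes fell less than the median cytosolic enzyme (0.444 times): KARS went from 398, 317 and 311 to 250, 261 and 264, which is 0.756 times the control mean, and QARS to 0.698 times.

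EPRS was at 587, 501 and 497 scaled FPKM in control and at 365, 353 and 350 in H/R. Every H/R library was below every control, and the log2 change was -0.56 ± 0.07 (adjusted p = 0.000160). LARS, whose protein also serves as a leucine sensor upstream of mTORC1 in human cells, went from 166, 154 and 161 to 118, 107 and 110 scaled FPKM, a log2 change of -0.52 ± 0.08 (adjusted p = 0.000484). In deposited FPKM these changes were large, EPRS falling from 1153, 908 and 878 to 244, 237 and 235 (0.244 times) and LARS to 0.252 times the control mean. In lists formed after the data had been seen, 21 of 24 long-transcript genes tested were lower relative to the median locus, with a median log2 change of -0.57, and 59 of 61 ribosomal protein genes, whose transcripts are short, were higher, with a median of 1.47. The part of transcript length in the changes of the synthetases was not tested.

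**Figure D2:**
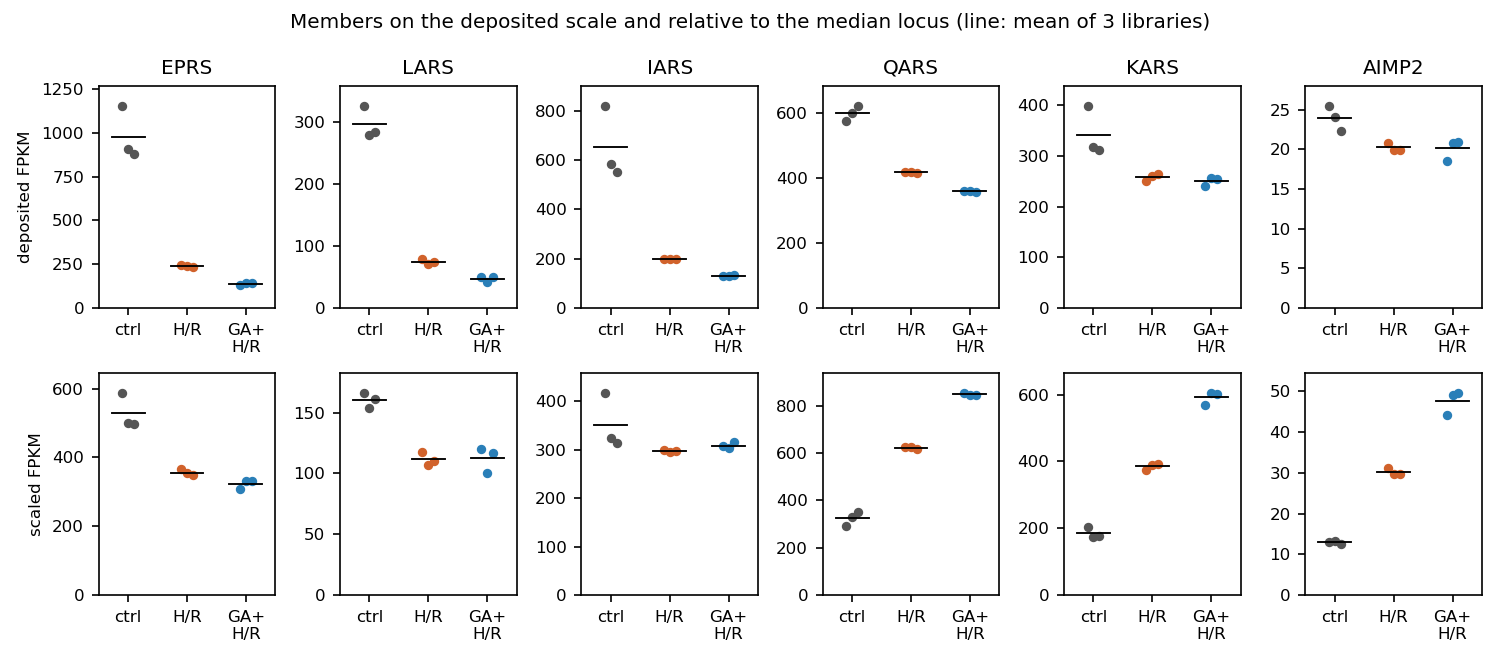
FPKM of 6 members in the 9 libraries as deposited (top) and relative to the median locus (bottom), with points for libraries and lines for the mean of 3. KARS falls from 311 to 398 FPKM in control to 250 to 264 in H/R as deposited, but lies at 373 to 393 against 175 to 203 after scaling, whereas EPRS is lower on both scales.

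The other complex enzymes lay between these. Isoleucyl IARS had a log2 change of -0.23 (95% interval -0.45 to -0.01, adjusted p = 0.0738), although its H/R libraries, at 296 to 298 scaled FPKM, were all below the controls at 313 to 416. Arginyl RARS had -0.07 (-0.28 to 0.13), DARS -0.31 (adjusted p = 0.0736) and MARS 0.29 (adjusted p = 0.145). Without control 1, DARS was called lower at -0.45 (adjusted p = 0.00260) and MARS higher at 0.52 (adjusted p = 2.43e-05). Without control 3, IARS was called lower at -0.29 (adjusted p = 0.0304).

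Enzymes outside the complex were called higher in 4 of 8 cases relative to the median locus and lower in none, beside 29.2% and 28.4% of all loci. Their median log2 change was 0.37, while on the deposited scale all 8 were lower, as were 86% of all loci. Tryptophanyl WARS, an interferon-induced gene in human cells, was at 20.6, 18.4 and 19.2 scaled FPKM in control and 32.9, 30.0 and 30.5 in H/R, with no overlap and a log2 change of 0.65 ± 0.08 (adjusted p = 0.000113). SARS changed by 0.42 (adjusted p = 0.0388), threonyl TARS by 0.38 (adjusted p = 0.0177) and VARS by 0.36 (adjusted p = 0.0238).

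These last 3 calls were less stable than that of WARS. The SARS call ended when any of 8 libraries was left out, all but control 1 (adjusted p = 0.0501 to 0.112), and its groups overlapped. The VARS call ended without control 2, control 3 or any of the H/R libraries (adjusted p = 0.0546 to 0.0736), and the TARS call without control 2 (adjusted p = 0.0513) or H/R 3 (adjusted p = 0.0517). NARS (0.37) and YARS (0.40) were not called, but both were without control 1, at 0.60 (adjusted p = 4.76e-05) and 0.63 (adjusted p = 0.000575). In that fit 9 cytosolic enzymes were called higher in place of 6, and without control 2 or H/R 3 the number was 3. Loci called higher numbered 3271 of 10592 without control 1, 2788 of 10665 without control 2 and 2832 of 10924 without H/R 3. AARS (0.16) and FARSB (0.07), the beta subunit of phenylalanyl tRNA synthetase, were not called in any of these fits.

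Among the scaffold proteins AIMP2 rose most relative to the median locus, and fell slightly on the deposited scale. It was at 12.9, 13.3 and 12.6 scaled FPKM in control and at 31.1, 29.7 and 29.7 in H/R, with no overlap and a log2 change of 1.16 ± 0.08 (adjusted p = 2.99e-06). In deposited FPKM, AIMP2 went only from 25.4, 24.0 and 22.3 to 20.8, 20.0 and 19.9, a log2 change of -0.23 (adjusted p = 0.0310). AIMP1, the precursor of the cytokine EMAPII, changed by 0.34 relative to the median locus (adjusted p = 0.0452), a call that ended without any of 7 libraries, all but control 1 and GA+H/R 1 (adjusted p = 0.0518 to 0.158). EEF1E1 changed by -0.02 (95% interval -0.34 to 0.31) and was not called.

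Of the 9 mitochondrial enzymes tested, 4 were called higher and 1 lower relative to the median locus, beside 29.2% and 28.4% of all loci. Their median log2 change was 0.21, and these counts were the same without any 1 library. On the deposited scale all 9 were lower, as were 86% of all loci. Phenylalanyl FARS2 was at 9.85, 8.48 and 10.2 scaled FPKM in control and 18.0, 19.1 and 15.8 in H/R, a log2 change of 0.83 ± 0.16 (adjusted p = 0.00214). SARS2 changed by 0.74 (adjusted p = 0.00217), WARS2 by 0.62 (adjusted p = 0.00347) and YARS2 by 0.61 (adjusted p = 0.00898). In each of these 4 genes the H/R libraries lay above all controls, as they did for 34.1% of all loci. Isoleucyl IARS2 was the exception, with 4.05, 4.35 and 4.01 scaled FPKM in control against 2.90, 2.77 and 2.58 in H/R, a log2 change of -0.46 ± 0.11 (adjusted p = 0.00557). It was also the mitochondrial enzyme with the largest deposited fall, to 0.241 times the control mean. EARS2 (0.14), HARS2 (0.21), MARS2 (-0.17) and NARS2 (-0.01) were not called, and their groups overlapped.

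**Figure D3:**
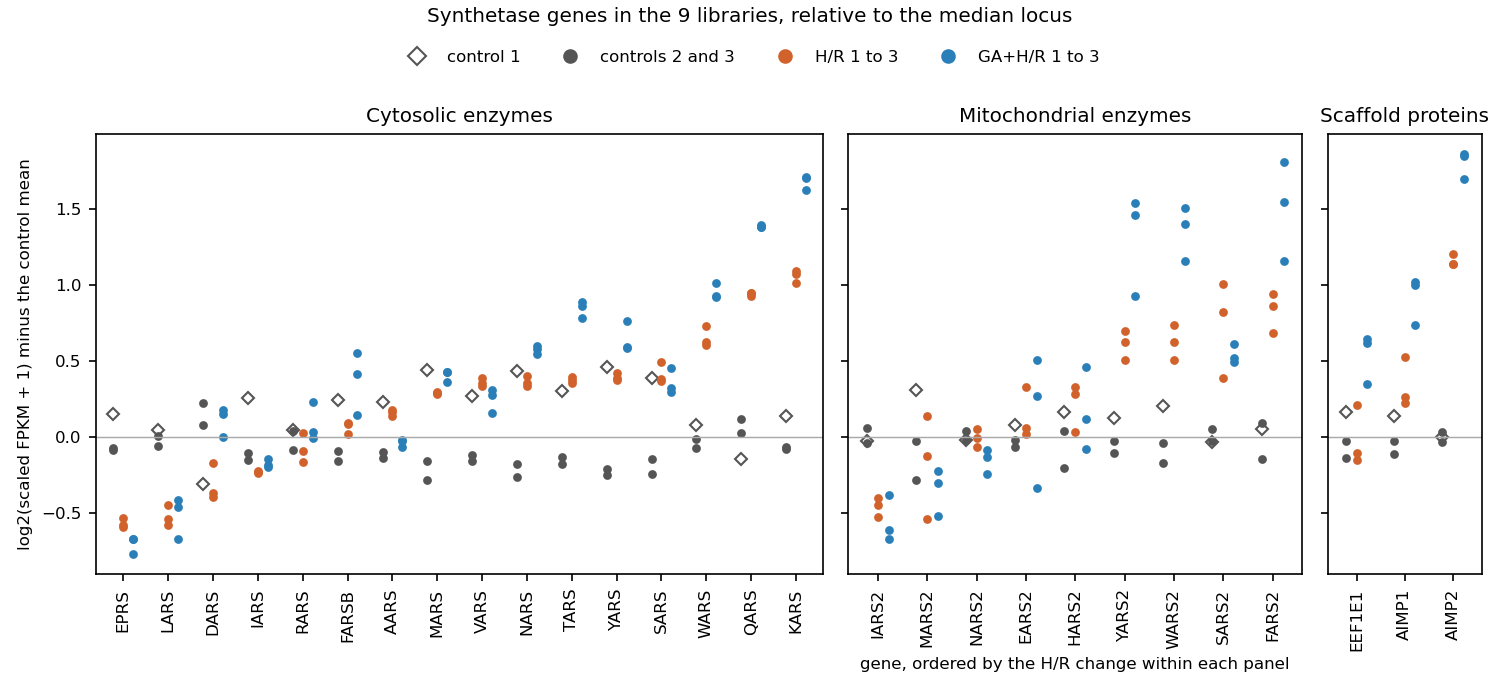
Scaled FPKM of the 28 members tested, as log2(scaled FPKM + 1) minus the mean of the controls, with 1 point per library and control 1 drawn as an open diamond. KARS, QARS, WARS and AIMP2 separate on this scale into 3 steps from control through H/R to GA+H/R, while EPRS and LARS lie below the controls in both treated groups.

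Ratios between members of the complex within a library are free of any scaling between libraries, and most ratios to EPRS moved in steps. They were formed after the values had been seen, are given without a test, and only their change is read, since the levels of different loci were not shown to share a scale. EPRS had the lowest log2 change of the 8 complex enzymes in both steps (-0.56 and -0.14), so its choice as denominator favours rising ratios. Differences in transcript length remain within a library, and their part was not tested. KARS over EPRS was 0.345, 0.349 and 0.354 in the controls, 1.02, 1.10 and 1.125 after H/R and 1.84, 1.82 and 1.82 for GA+H/R. The controls differed little, control 1 included, and no group overlapped another. The ratio was 3.10 times as high in H/R as in control, and again 1.69 times as high in GA+H/R as in H/R.

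QARS over EPRS went from a mean of 0.622 to 1.75 and 2.62, and AIMP2 over EPRS from 0.0247 to 0.0847 and 0.147, neither with overlap between groups. MARS over EPRS went from 0.385 to 0.690 and 0.824. LARS over EPRS, by contrast, was 0.305 ± 0.0206, 0.313 ± 0.00966 and 0.348 ± 0.0433 (SD, n = 3), with overlap in both steps. The LARS ratio thus changed by 1.03 and then 1.11 times, far less than those of KARS, QARS and AIMP2, whose products sit in the same complex.

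**Figure D4:**
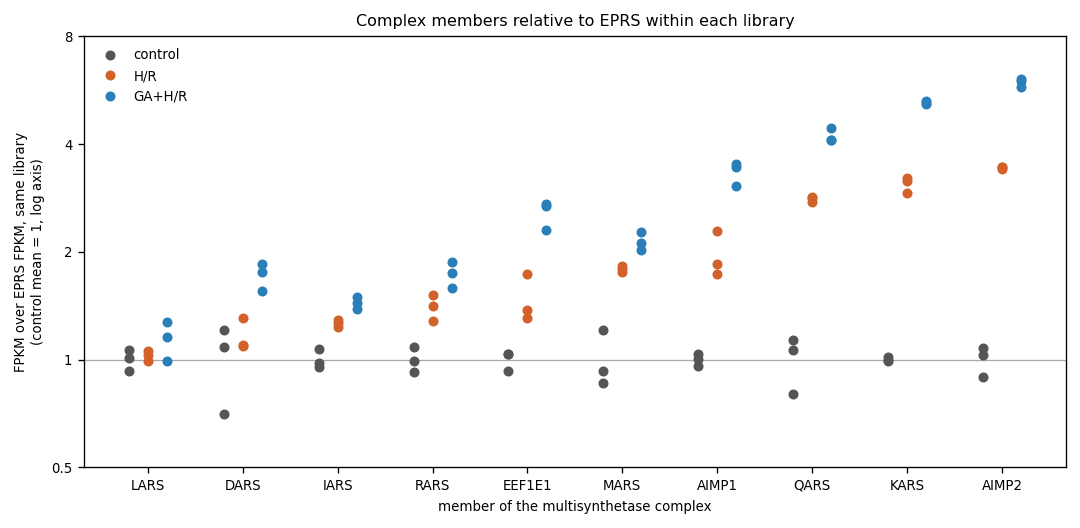
FPKM of each complex member divided by EPRS FPKM in the same library, set to a control mean of 1 (log axis), with 1 point per library. LARS over EPRS averages 1.03 times the control mean in H/R and overlaps the controls, while KARS, QARS and AIMP2 are 2.81 to 3.44 times the control mean in H/R and higher again in GA+H/R.

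Gallic acid before hypoxia and reoxygenation was then compared with hypoxia and reoxygenation alone. Relative to the median locus all 3 scaffold proteins rose, as did 5 of 16 cytosolic and 3 of 9 mitochondrial enzymes, and on the deposited scale none of the 28 was called higher. Of all loci 33.9% were called, 18.7% higher and 15.2% lower. The median log2 change was 0.58 for the scaffold proteins, 0.19 for cytosolic and -0.05 for mitochondrial enzymes, and 0.0040 for all loci. On the deposited scale 15 members were lower (10 cytosolic, 5 mitochondrial), where 66% of loci were called, 1.69% higher and 64.3% lower. The GA+H/R libraries lay wholly above those of H/R for 10 of the 16 cytosolic enzymes and wholly below for 3, and for 27.4% and 24.5% of all loci. Relative to the median locus, 19 of the 24 long-transcript genes were lower (median -0.57) and 58 of 61 ribosomal protein genes higher (median 0.75). The part of transcript length in the changes of the synthetases was not tested here either. This comparison uses the same H/R libraries as the one before, so the values below are set beside the earlier ones without being counted together.

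AIMP2 was at 44.1, 49.1 and 49.6 scaled FPKM in GA+H/R against 31.1, 29.7 and 29.7 in H/R, with no overlap and a log2 change of 0.64 ± 0.08 (adjusted p = 0.000409). AIMP1 changed by 0.58 ± 0.13 (adjusted p = 0.00793), at 9.79, 11.9 and 12.1 against 6.56, 6.75 and 8.29 scaled FPKM. EEF1E1 changed by 0.55 ± 0.14 (adjusted p = 0.0161), a call that ended without H/R 2 (adjusted p = 0.0589) or H/R 3 (adjusted p = 0.0561). In deposited FPKM the scaffold proteins were nearly level between these groups, with mean ratios of 0.995 for AIMP2, 0.985 for AIMP1 and 1.004 for EEF1E1 and overlapping libraries, while the median locus was lower.

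Within the complex, KARS was at 570, 605 and 601 scaled FPKM in GA+H/R, above the 373 to 393 of H/R, a log2 change of 0.62 ± 0.07 (adjusted p = 0.000230). QARS, at 853, 846 and 845 against 616 to 626, changed by 0.45 ± 0.06 (adjusted p = 0.00108). DARS changed by 0.42 (adjusted p = 0.0374), with no overlap between groups, but the call ended without control 2, H/R 1, H/R 2, GA+H/R 1 or GA+H/R 3 (adjusted p = 0.0585 to 0.114). EPRS, at 309, 332 and 331 against 350 to 365 scaled FPKM, changed by -0.14 (adjusted p = 0.168) and was called lower without control 1 (adjusted p = 0.0148). LARS changed by 0.01 (95% interval -0.17 to 0.19). On the deposited scale QARS was called in the other direction, at -0.22 (adjusted p = 0.00262), EPRS (-0.80) and LARS (-0.65) were called lower, and KARS (-0.046) and DARS (-0.24) were not called.

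Outside the complex, TARS was at 510, 548 and 538 scaled FPKM in GA+H/R against 385, 379 and 389 in H/R, without overlap, a log2 change of 0.47 ± 0.11 (adjusted p = 0.0124). WARS changed by 0.30 ± 0.08 (adjusted p = 0.0176), a call that ended without H/R 2 (adjusted p = 0.0624), H/R 3 (adjusted p = 0.0578) or GA+H/R 1 (adjusted p = 0.0527). NARS (0.21, adjusted p = 0.331) and YARS (0.25, adjusted p = 0.302) were called when control 1 was left out, and FARSB (0.30) when GA+H/R 3 was (0.42, adjusted p = 0.0497). SARS (-0.06), VARS (-0.11) and AARS (-0.20) were not called. In deposited FPKM WARS was called lower, at -0.34 (adjusted p = 0.0119), as were SARS, VARS and AARS, and TARS (-0.20) was not called. Without H/R 2 or without GA+H/R 1 the number of cytosolic enzymes called higher was 3, and without control 1 it was 7. Over all loci, 1574 of 10945, 1778 of 10964 and 2414 of 10592 were called higher in these fits.

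Among the mitochondrial enzymes WARS2 rose from 13.5, 12.3 and 14.7 to 23.7, 19.9 and 25.7 scaled FPKM, a log2 change of 0.73 ± 0.13 (adjusted p = 0.00344). YARS2 changed by 0.70 ± 0.16 (adjusted p = 0.00899) and FARS2 by 0.68 ± 0.16 (adjusted p = 0.0123). For each of these 3 genes the GA+H/R libraries lay above all H/R libraries on this scale, as they did for 27.4% of all loci. In deposited FPKM their groups overlapped, and the log2 changes of 0.096 for WARS2, 0.054 for YARS2 and 0.038 for FARS2 were not called. SARS2, at -0.20, was called lower when H/R 3 was left out (-0.37, adjusted p = 0.0330). The remaining mitochondrial enzymes lay between -0.18 for MARS2 and 0.01 for EARS2.

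**Figure D5:**
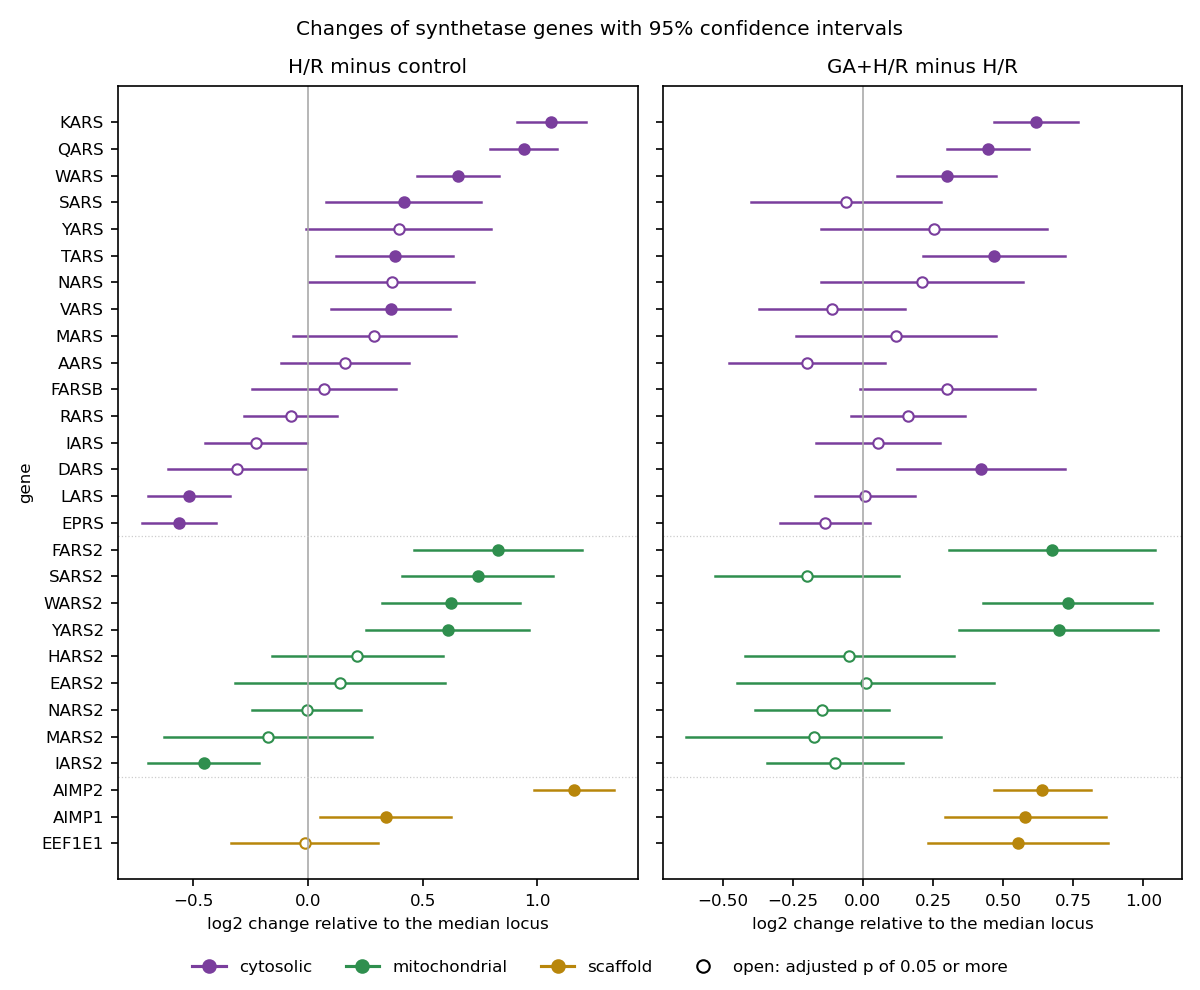
Log2 changes relative to the median locus with 95% confidence intervals for the 28 members tested, H/R minus control on the left and GA+H/R minus H/R on the right, with filled points for an adjusted p under 0.05. KARS, QARS and AIMP2 lie furthest right among the cytosolic and scaffold genes on the left, at 1.06, 0.94 and 1.16, and the 3 scaffold proteins are filled on the right.

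Against untreated control, the cells given gallic acid and then hypoxia and reoxygenation had 15 of the 28 members higher and 3 lower relative to the median locus, where 69.2% of loci were called, 33.7% higher and 35.5% lower. All 28 were lower on the deposited scale, where 94.2% of loci were called, 4.1% higher and 90.1% lower. The GA+H/R libraries lay wholly above the controls for 6 of the 16 cytosolic enzymes and wholly below for 2, and for 35% and 36.5% of all loci. All 24 long-transcript genes were lower relative to the median locus (median -0.97), and 60 of 61 ribosomal protein genes were higher (median 2.18). This contrast shares its control and GA+H/R libraries with those above. The changes furthest from 0 were 1.80 ± 0.08 for AIMP2, 1.68 ± 0.07 for KARS, 1.504 ± 0.16 for FARS2 and 1.39 ± 0.06 for QARS. On the low side they were -0.70 ± 0.07 for EPRS, -0.55 ± 0.11 for IARS2 and -0.51 ± 0.08 for LARS. As ratios of mean scaled FPKM to the control mean, IARS2 was at 0.607, EPRS at 0.613 and LARS at 0.700.

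In deposited FPKM, EPRS was at 130, 141 and 140 in GA+H/R, which is 0.140 times its control mean, IARS2 at 0.139 times and KARS at 0.732 times. By class, 8 cytosolic enzymes were called higher and 2 lower, 4 mitochondrial enzymes were higher and 1 lower, and all 3 scaffold proteins were higher relative to the median locus. The calls of MARS (0.41) and FARSB (0.37) ended without any of 8 and of 7 libraries (adjusted p = 0.0613 to 0.130 and 0.0538 to 0.127), and their groups overlapped. For MARS the exception was control 1, and for FARSB the exceptions were control 1 and GA+H/R 3. Without control 1, SARS (0.56) and VARS (0.39) were called as well. IARS was called lower when control 3 was left out (-0.24, adjusted p = 0.0491), and EARS2 higher when GA+H/R 2 was left out (0.40, adjusted p = 0.0362).

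Cytosolic and mitochondrial enzymes for the same amino acid could be set side by side for 8 pairs in which both genes were tested. In H/R against control and relative to the median locus, both enzymes were called higher for serine (SARS and SARS2) and tryptophan (WARS and WARS2). For phenylalanine and tyrosine the mitochondrial enzyme was called higher and the cytosolic one was not called. For isoleucine IARS2 was called lower and IARS was not called, and for glutamate EPRS was called lower and EARS2 was not called. Neither enzyme was called for methionine and asparagine. The difference between the enzymes of a pair was not tested.

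Within-library ratios of 3 pairs, picked after their values had been seen, are given without a test. FARS2 over FARSB went from a mean of 0.900 to 1.58 and 2.07, without overlap in either step. WARS2 over WARS averaged 0.433 among controls and 0.434 after H/R, with overlap, and 0.600 for GA+H/R, above all H/R libraries. NARS2 over NARS moved down, from 0.0212 to 0.0159 and 0.0111, with overlap between control and H/R.

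Histidyl HARS, AARS2, CARS2, PARS2 and RARS2 were under the filter, which asked for a scaled FPKM of at least 1 in 3 libraries, and were not tested. HARS was at 0.837, 0.734 and 0.897 FPKM among controls, 0.424, 0.375 and 0.410 after H/R and 0.408, 0.339 and 0.377 for GA+H/R, so the treated groups lay below the controls and overlapped each other. As scaled FPKM the direction turned, with HARS at 0.426, 0.405 and 0.508 among controls, 0.633, 0.559 and 0.611 after H/R and 0.967, 0.798 and 0.891 for GA+H/R, each group wholly above the one before. AARS2 was at 0.936 to 1.18 FPKM among controls, 0.381 to 0.550 after H/R and 0.104 to 0.279 for GA+H/R, without overlap between neighbouring groups, but as scaled FPKM the AARS2 groups overlapped in every comparison, with means of 0.573, 0.684 and 0.394. CARS2, PARS2 and RARS2 were under 0.5 FPKM in every library. AARS, NARS2, EARS2, HARS2, IARS2 and EEF1E1 passed the filter at low values, where the added 1 FPKM draws log2 changes towards 0. In the authors' deposited table, whose single test runs across the 3 groups, 30 of the 33 members were marked significant, against 56% of loci, with AIMP2, FARS2 and CARS2 unmarked. These shares are not alike, since 28 of the 33 members passed the filter used here but only 10956 of the 19511 loci.

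Other genes around tRNA charging were listed by role. Of 26 related genes, such as tRNA editing, export and selenocysteine factors, 20 were in the table and 14 were tested. Relative to the median locus 2 were called higher and 1 lower in H/R against control, and 4 higher and 0 lower in GA+H/R against H/R, with medians of 0.16 and 0.19. For all loci the shares were 29.2% higher and 28.4% lower, then 18.7% higher and 15.2% lower. DTD1, which removes D-amino acids from tRNA, changed by 0.71 ± 0.19 and 0.61 ± 0.19 in these comparisons, and both changes were called. DALRD3, which takes part in tRNA methylation in human cells, changed by 1.04 ± 0.19 in the first (called) and by 0.20 ± 0.19 in the second (not called). On the deposited scale none of this list was called higher in either comparison, and 15 of 16 and 5 of 16 were called lower, where 86% and 64.3% of all loci were.

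The amino acid response list had 31 of 35 genes in the table, all tested. In H/R against control 13 were called higher and 7 lower relative to the median locus, and in GA+H/R against H/R 8 were higher and 5 lower, with medians of 0.25 and 0.03. Of all loci, 29.2% were higher and 28.4% lower in the first comparison, and 18.7% and 15.2% in the second. The deposited split was 1 higher and 25 lower, then 0 higher and 18 lower. On that scale 4.18% of all loci were higher and 86% lower, then 1.69% and 64.3%. ATF4 itself was at 94.2, 60.5 and 47.2 FPKM among controls, 93.1, 99.1 and 97.0 after H/R and 100.4, 100.1 and 91.7 for GA+H/R. In these deposited values control 1 lay inside the range of the H/R libraries and far above the other controls. Relative to the median locus ATF4 changed by 2.01 ± 0.17 in H/R (adjusted p = 1.63e-05), and on the deposited scale by 0.57 (adjusted p = 0.0222).

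More amino acid transporters were called lower than higher on either scale. Of 15 tested, 1 was called higher and 6 lower in H/R against control, and 1 higher and 8 lower in GA+H/R against H/R, with medians of -0.36 and -0.46 relative to the median locus. The shares of all loci on this scale were 29.2% higher and 28.4% lower, then 18.7% higher and 15.2% lower. On the deposited scale 15 and then 13 were lower and none was higher, where 86% and then 64.3% of all loci were lower. The arginine and lysine transporter SLC7A1 changed by -0.45 ± 0.11 and -1.01 ± 0.11, and the glutamine transporter SLC38A2 by -0.63 ± 0.05 and -0.58 ± 0.05. All 4 changes were called.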

How the data were processed

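Values are FPKM per locus and library, as deposited by the authors. A p-value and a q-value for 1 test across the groups stand beside them in the authors' deposited table and served only to count marked members. Not given in the sources used here are the aligner, the quantification and any scaling between libraries. The submitters' processing notes name the mouse builds GRCm38 and mm10 for what are rabbit transcripts, so coordinates are left out. Of the members and lists, 2 genes are not reported here and are left out of the counts over them, though not of the fit. Low values showed no whole-read steps, so precision rests on the spread of 3 libraries.

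The factor of a library was the median ratio of its FPKM to the mean of all 9, taken over loci that reach FPKM of 1 in every library. Loci reaching a scaled FPKM of 1 in at least 3 libraries were tested as log2(scaled FPKM + 1) by limma 3.58.1 (R 4.3.3) with group means from all 9 libraries and trended, robust moderation. Two-sided p-values were adjusted over the 10956 loci (Benjamini and Hochberg). The fit was tested on simulated data. Alternatives were other scalings, a pseudocount of 0.1, other filters, 2 groups only, plain moderation, a replicate block and each library left out. Every member could be named, and from each other list up to 4 genes, those called with the largest change. Long-transcript and ribosomal lists, within-library ratios and the look at control 1 came after the data had been seen. The members and all lists were chosen with earlier results of these data known.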

Additional observations from a re-analysis of the deposited data

How the results depend on the processing

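Scaling between libraries decided the direction of most members. On the deposited scale the members called higher numbered 0 in every comparison. Those called lower were 16 cytosolic and 9 mitochondrial enzymes in H/R against control, 10 and 5 when GA+H/R was set against H/R, and again 16 and 9 against control. Of all loci, 86%, 64.3% and 90.1% were called lower in these comparisons on the deposited scale. The log2 changes that were called on at least 1 of the scales and changed sign there were, in H/R against control, -0.68 for AARS, -0.93 for AIMP1, -0.23 for AIMP2, -0.90 for EARS2, -0.53 for FARS2, -1.28 for FARSB, -0.90 for HARS2, -0.39 for KARS, -1.16 for MARS, -1.07 for NARS, -0.52 for QARS, -1.02 for SARS, -0.63 for SARS2, -1.08 for TARS, -1.07 for VARS, -0.75 for WARS, -0.72 for WARS2, -0.91 for YARS and -0.78 for YARS2. In GA+H/R against H/R they were -0.017 for AIMP1, -0.0085 for AIMP2, -0.24 for DARS, -0.61 for IARS, -0.046 for KARS, -0.65 for LARS, -0.54 for MARS, -0.22 for QARS, -0.48 for RARS, -0.20 for TARS and -0.34 for WARS, and those of EARS2 (-0.36), FARSB (-0.29), NARS (-0.44) and YARS (-0.33), called on neither scale, changed sign as well. In GA+H/R against control they were -0.95 for AIMP1, -0.24 for AIMP2, -1.99 for DARS, -1.27 for EARS2, -1.17 for EEF1E1, -0.49 for FARS2, -1.57 for FARSB, -1.35 for HARS2, -0.44 for KARS, -1.71 for MARS, -1.51 for NARS, -0.74 for QARS, -1.98 for RARS, -1.73 for SARS, -1.43 for SARS2, -1.27 for TARS, -1.81 for VARS, -1.09 for WARS, -0.62 for WARS2, -1.24 for YARS and -0.73 for YARS2. With libraries scaled to equal sums of FPKM, the median log2 change over all loci was -0.24, -0.07 and -0.37. Among changes called on this scale or the main one, those of DARS (-0.26) and RARS (-0.28) in GA+H/R against control changed sign. Changes of sign in members called on neither are not listed. Under equal sums 3 cytosolic enzymes were higher and 5 lower in H/R against control, with 2 mitochondrial enzymes higher. Of all 10809 loci tested under equal sums, 2088 were higher and 4447 lower in this comparison. In GA+H/R against H/R 3 cytosolic enzymes were higher, and in GA+H/R against control 4 cytosolic enzymes were higher and 5 lower, with 3 mitochondrial enzymes lower. Over all loci the numbers under equal sums were 1342 higher and 1847 lower, then 2589 higher and 5298 lower. Under quantile normalization 3 cytosolic enzymes were higher with GA+H/R set against H/R, and 2 mitochondrial enzymes lower in GA+H/R against control. Of 10996 loci tested that way, 1972 were higher in the former and 4331 lower in the latter. With only the 2 groups compared, 1 cytosolic enzyme was lower in GA+H/R against H/R, where 2093 of 9665 loci were lower.

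KARS, QARS, WARS and AIMP2 kept their direction and calls in H/R against control under every alternative other than the deposited scale. EPRS and LARS kept theirs under every alternative, the deposited scale included. When each library was left out in turn, cytosolic enzymes called higher numbered 3 to 9 in H/R against control, 3 to 7 with GA+H/R set against H/R, and 6 to 10 with GA+H/R set against control. Cytosolic enzymes called lower numbered 2 to 3, 0 to 1 and 2 to 3. Mitochondrial enzymes called higher numbered 4 to 4, 3 to 3 and 4 to 5, and called lower 1 to 1, 0 to 1 and 1 to 1. Of the 10592 to 10966 loci tested in these fits, 2788 to 3271, 1574 to 2414 and 3358 to 3675 were called higher. Loci called lower numbered 2636 to 3176, 1117 to 2142 and 3442 to 3791. Deviations of same-numbered libraries correlated at -0.018 to 0.026, so no pairing by replicate number was seen. The labels do not say if the samples were paired. With the replicate number as a block, AIMP1 in H/R against control lost its call (adjusted p = 0.0643) and SARS in GA+H/R against control gained 1 (adjusted p = 0.0260). The alternative relative to loci of like protein length was not run, because no protein lengths were at hand. The depth behind the values is unknown, so no counting error can be set beside them.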

Other observations

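A few synthetase loci fall outside the naming rule because the table joins or names them differently, and their deposited values are means over the 3 libraries of a group. The locus that joins LARS2, the mitochondrial leucyl enzyme, to a neighbouring locus averaged 116 FPKM among controls, 35.2 after H/R and 17.5 for GA+H/R. The locus that joins TARS2, the mitochondrial threonyl enzyme, to the matrix gene ECM1 was at 51.0, 21.6 and 7.76 FPKM, and the reads of the joined genes cannot be told apart. TARSL2, which encodes a threonyl enzyme related to TARS, was at 29.8, 11.3 and 11.1 FPKM. Relative to the median locus, TARSL2 changed by 0.06 ± 0.13 in H/R against control (adjusted p = 0.737) and by 0.61 ± 0.13 in GA+H/R against H/R (adjusted p = 0.00714).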
